A study of Mus musculus with 6 samples.

Results

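The Prpf19 complex is a group of proteins that joins the spliceosome, the machine that cuts introns out of pre-mRNA. Its genes were described here in BUMPT cells, a conditionally immortalised line from the proximal tubule of the mouse kidney. The 10 genes Prpf19, Cdc5l, Plrg1, Bcas2, Crnkl1, Xab2, Ctnnbl1, Cwc15, Isy1 and Syf2 were taken by name, through mouse transcript IDs matched to GENCODE M21 symbols, from 11236 gene symbols in the table. All 10 were listed, with 14 transcripts, and all 10 passed the filter on low values. The set was put together because Prpf19 was among the genes called between these same libraries, so the values of its members are a description, and no p-value is given for Prpf19.

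One group of 3 libraries carried the label NC and the other, also of 3, the label tRF-Val, which stands for tRF-Val-TAC-004, a piece of the transfer RNA for valine. NC is not spelled out, and no label gives the direction of the manipulation (fragment added or blocked), its dose or its duration. No other genotype or agent is labelled in either group. Separate cultures are not stated, so spreads and p-values may be technical. The study's stated purpose was a search for a target of the fragment in apoptosis.

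In the spliceosome, the Prpf19 complex enters as the machine is activated and stays through both cutting steps, where it holds the catalytic RNA in place. Prpf19 itself is a ubiquitin ligase of the U-box type, which attaches ubiquitin chains that change how splicing proteins bind one another. The same complex and its partner Xab2 are also known from the response to DNA damage and from repair of transcribed genes.

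Each value is an abundance scaled to the library, added over the listed transcripts of a gene. The deposited values are not read counts and give no sequencing depth, which is unknown. The values of mouse transcripts summed to 387611 to 389669 per library in NC and to 421201 to 444539 in tRF-Val. NC 3 stood apart from the other libraries: its correlation with NC 1 and NC 2 across 10405 genes was 0.903 and 0.915, against 0.974 between NC 1 and NC 2. Mitochondrially encoded transcripts made up 6.32%, 6.58% and 17.5% of the values in NC 1 to 3. They made up 5.29%, 3.67% and 3.16% in tRF-Val 1 to 3, so these shares did not overlap between the groups, and NC 3 had the highest. All 8 general markers of kidney epithelium were listed, with summed levels of 490 to 738 in NC and 852 to 953 in tRF-Val. Of 12 markers of differentiated proximal tubule Aqp1 alone was listed, at 8.73 to 31.3 and 17.6 to 25.8, and defining ones such as Lrp2 and Slc34a1 were not. Leukocyte markers were 3 of 8 (Cd14, Cd68 and Cd3e, without the defining Ptprc), with summed levels of 7.11 to 22.9 in NC and 33.6 to 40.1 in tRF-Val. Of 7 fibroblast markers 2 were listed, at 0.850 to 1.26 and 1.01 to 1.76, and of 6 endothelial markers Cdh5 alone, at 6.25 to 8.03 and 2.72 to 5.02. The part of such cells, of the mitochondrial shares or of the sums of mouse transcripts in the results was not tested.

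Prpf19 was the member that differed most between the groups. Its summed level was 21.8, 17.9 and 26.8 in NC 1 to 3, against 111, 115 and 96.2 in tRF-Val 1 to 3. The groups did not overlap, and the lowest tRF-Val library lay far above the highest NC library. The means were 22.1 ± 4.46 (SD, n = 3) and 107 ± 9.93 (SD, n = 3), a ratio of 4.85. The fold change was 2.24 (SE 0.18) on the log2(value + 1) scale, tRF-Val minus NC, which was rank 5 from the top among the 10405 genes tested. Fold changes below are on that scale. Without NC 3 the NC mean was 19.8 and the fold change 2.38. In bulk libraries a change in the cells that express a gene and a change in RNA per cell cannot be told apart.

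Prpf19 was 1 of 27 genes called over 10405 genes by limma at a Benjamini-Hochberg adjusted p under 0.05, 6 of them higher in tRF-Val (0.0577%) and 21 lower (0.202%). That is 1 of 10 members, where 0.259% of all genes were called. Because the set was chosen from this contrast, nothing is read from that share. The call depended on single libraries: it was absent in 4 of 6 fits that left out 1 library (NC 1, NC 2, tRF-Val 2 or tRF-Val 3), although the fold change stayed between 2.1 and 2.38. The call was also absent once the trends of the libraries with length and GC content of the transcripts had been removed (fold change 2.1), with 0.01 added in place of 1 (2.29) and with the replicate number as a block (2.24).

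Among the 10 members its level held ranks 6, 7 and 7 in NC 1 to 3 and rank 2 in each tRF-Val library. Cdc5l, a Myb-related protein that binds Prpf19 in the core of the complex, served as a within-library reference that scaling cannot change. The ratio of Prpf19 to Cdc5l was 0.446, 0.341 and 0.373 in the NC libraries. It was 2.30, 2.28 and 1.87 in the tRF-Val libraries. These ratios compare levels of different genes and assume that the authors' abundance is per transcript length, as StringTie's measures are.

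**Figure D1:**
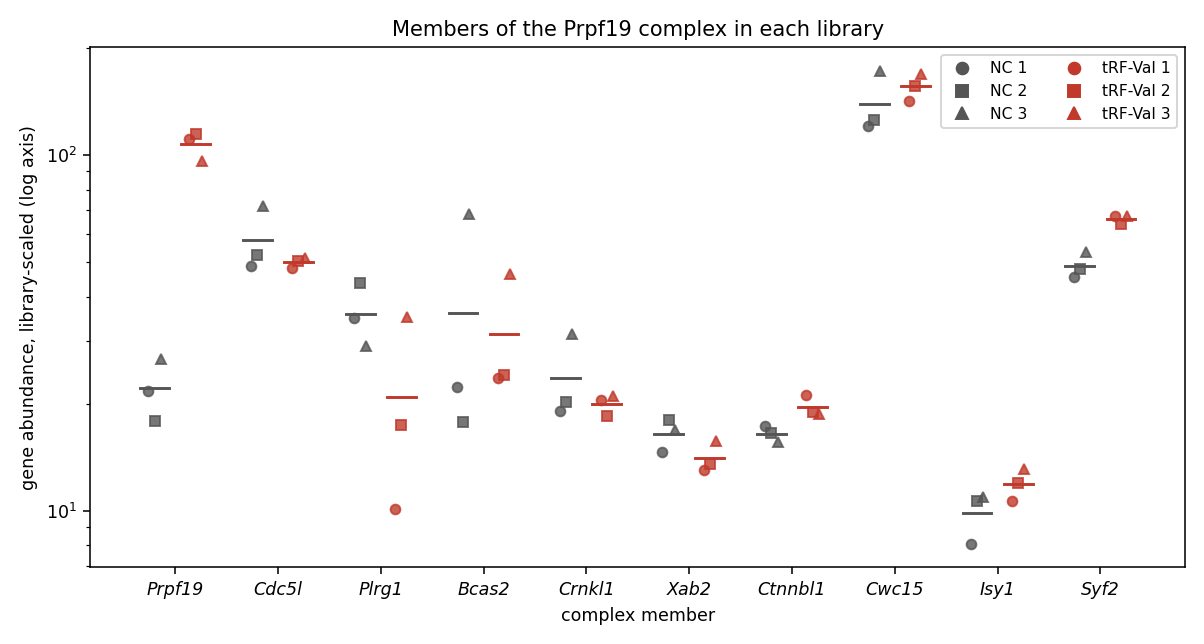
Level of each complex member in each library (points, shape by replicate number, log axis) with group means (lines), NC in grey and tRF-Val in red. Prpf19 lies at 17.9 to 26.8 in NC and 96.2 to 115 in tRF-Val, while most other members overlap between the groups.

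The table listed a pair of protein-coding Prpf19 transcripts with 16 exons each, and they differ in the coding part as well as at the ends. The gene (ENSMUSG00000024735.13) spans 10895231 to 10909559 on chromosome 19 (GRCm38, plus strand). Prpf19-201 is 2134 bases long with a coding length of 1512, and Prpf19-203 is 6035 bases long with a coding length of 1569. Exon 4 of Prpf19-203 begins 57 bases earlier, at chr19:10898926-10898982, which adds 19 codons in frame. The last exon is 498 bases in Prpf19-201 and 4525 in Prpf19-203, and the excess is 3′ untranslated. The junction of exons 3 and 4 is shown because it is the coding difference between the transcripts. Each line runs 5′ to 3′ from the last 20 bases of exon 3 (GENCODE M21 transcript sequences, GRCm38), and capitals mark the bases that Prpf19-203 alone holds.
Prpf19-201: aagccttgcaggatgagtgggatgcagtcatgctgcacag
Prpf19-203: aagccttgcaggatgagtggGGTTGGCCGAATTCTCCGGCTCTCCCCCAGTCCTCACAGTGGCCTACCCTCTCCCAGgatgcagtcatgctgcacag

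The difference in the gene sum was carried by the shorter transcript. Prpf19-201 was at 18.8, 15.1 and 5.05 in NC 1 to 3, against 106, 114 and 80.9 in tRF-Val 1 to 3, so the groups did not overlap. Prpf19-203, the transcript with the extra bases shown above, was at 2.96, 2.76 and 21.7 in the NC libraries, against 4.57, 1.16 and 15.3 in the tRF-Val libraries. It was high in 1 library of each group, NC 3 and tRF-Val 3, and the groups overlapped. Prpf19-201 made up 86.4%, 84.5% and 18.9% of the gene's value in NC 1 to 3, against 95.9%, 99.0% and 84.1% in tRF-Val 1 to 3. NC 3 thus divided the gene in another way than the other 5 libraries, while its sum (26.8) was above those of NC 1 (21.8) and NC 2 (17.9). The division rests on the authors' assignment of reads between transcripts that share most of their sequence. If abundance is per transcript length, the sum depends on that assignment too, since the transcripts differ in length. How far it does was not tested.

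**Figure D2:**
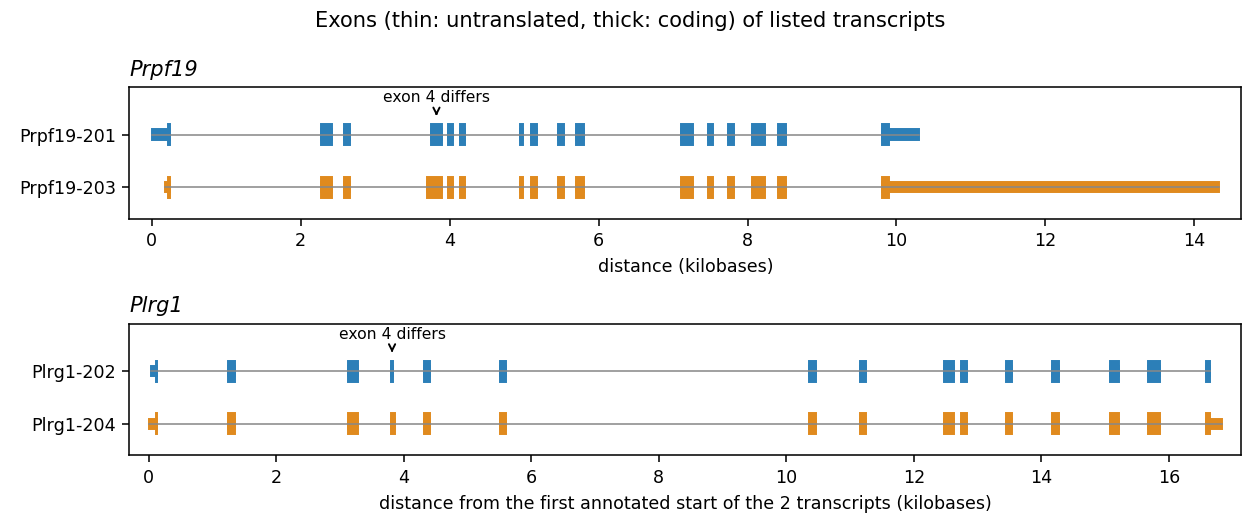
Exons of the listed transcripts of Prpf19 and Plrg1, drawn to scale as distance in kilobases from the first annotated start, with thick boxes for coding and thin boxes for untranslated sequence. The Prpf19 transcripts differ at the start, in exon 4 and in the long last exon of Prpf19-203 (4525 bases), and the Plrg1 transcripts differ at both ends and in exon 4.

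The stretch before the start of Prpf19-201, the transcript that differed, is shown as the promoter. Prpf19-203 starts 183 bases later within the same first exon, so the stretch lies upstream of both transcripts. These are the 250 bases before the first RefSeq start of Prpf19 on GRCm38.p6, chr19:10894981-10895230, plus strand, with a GC content of 51.2%. Capitals mark matches to the motifs searched.
Prpf19 promoter: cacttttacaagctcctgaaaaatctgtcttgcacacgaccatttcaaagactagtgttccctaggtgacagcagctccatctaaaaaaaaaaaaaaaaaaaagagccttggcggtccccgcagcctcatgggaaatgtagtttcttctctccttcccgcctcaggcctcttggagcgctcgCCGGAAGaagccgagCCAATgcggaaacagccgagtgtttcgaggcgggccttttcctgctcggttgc
Motifs were searched as exact letters on both strands, and a match is a description of the sequence, not a bound site. CCGGAAG, the core recognised by ETS factors, begins 68 bases before the start, and 5 of 10 members (Prpf19, Xab2, Cwc15, Isy1 and Syf2) hold it, against 15.0% of 8819 such windows of genes in the table. CCAAT begins 53 bases before the start and is held by 5 members (Prpf19, Cdc5l, Plrg1, Xab2 and Cwc15), against 37.6% of windows. The letters GGGCGG are in 6 members and 61.2% of windows, TGACGTCA in 2 members (Cdc5l and Xab2) and 2.88%, CACGTG in 1 member (Bcas2) and 8.50%, and TATAAA in 0 members and 6.26%. None of these last 4 is in the Prpf19 window. The matches drawn in capitals do not overlap, and Xab2 and Cwc15 hold both CCGGAAG and CCAAT as well.

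Of the other 9 members none was called, 4 had positive and 5 negative fold changes, and their median was -0.016, beside 0.01 over all genes. That median ran from -0.22 without NC 1 to 0.20 without NC 3. It was -0.26 after rescaling without mitochondrial transcripts, which moved the median of all genes to -0.20. The rescaling set the sums of the remaining mouse transcripts equal across libraries, so it also removed the group difference in those sums. The parts of the mitochondrial shares and of the sums were not tested apart. By limma 1 of the 9, Syf2, had an unadjusted p under 0.05, where 27.8% of all genes did. The groups did not overlap in 2 of the 9, Ctnnbl1 and Syf2, both higher in tRF-Val, where 42.5% of all genes had groups apart and 20.3% had them apart in that direction. A p that misses the threshold does not show that these genes were alike in the groups. NC 3 was the highest of all 6 libraries in 4 of the 9 members, beside 25.9% of all genes. Bcas2, Crnkl1, Xab2, Cwc15, Isy1 and Syf2 lie on chromosomes 3, 2, 8, 9, 6 and 4.

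Cdc5l was at 48.7, 52.3 and 71.8 in NC 1 to 3, against 48.2, 50.5 and 51.5 in tRF-Val 1 to 3. Apart from NC 3 all libraries lay between 48.2 and 52.3. The fold change was -0.18 (SE 0.18), and -0.013 without NC 3. The gene lies on chromosome 17 at 45391884 to 45433737.

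Bcas2, a small subunit of the core, was at 22.3, 17.7 and 68.2 in NC 1 to 3, against 23.7, 24.04 and 46.4 in tRF-Val 1 to 3. NC 3 and tRF-Val 3 were high and the other 4 libraries similar, so the spread within each group was larger than the distance between the means of 36.1 ± 27.9 and 31.4 ± 13.0 (SD, n = 3 each). The fold change was -0.016 (SE 0.54). Leaving out any of 3 libraries turned its sign: it was 0.56 without NC 3, 0.14 without tRF-Val 1 and 0.13 without tRF-Val 2.

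Plrg1, a WD-repeat protein of the core, was at 34.7, 43.7 and 29.1 in NC 1 to 3, against 10.1, 17.5 and 35.1 in tRF-Val 1 to 3. The tRF-Val libraries 1 and 2 were below each NC library, but tRF-Val 3 was above NC 1 and NC 3, so the groups overlapped. The means were 35.8 ± 7.38 and 20.9 ± 12.8 (SD, n = 3 each), and the fold change was -0.90 (SE 0.43), the lowest of the 10 members. It ran from -0.49 without tRF-Val 1 to -1.34 without tRF-Val 3.

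Plrg1 too had a pair of listed transcripts that differ in coding sequence. The gene spans 83055522 to 83072355 on chromosome 3 (plus strand), with 15 exons in each transcript. Exon 4 of Plrg1-204 runs 27 bases further, at chr3:83059354-83059380, which adds 9 codons in frame; the ends of the transcripts differ as well. The junction of exons 4 and 5 is shown for that reason, with 20 bases on each side and capitals for the bases of Plrg1-204 alone (GENCODE M21, GRCm38).
Plrg1-202: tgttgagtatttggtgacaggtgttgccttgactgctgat
Plrg1-204: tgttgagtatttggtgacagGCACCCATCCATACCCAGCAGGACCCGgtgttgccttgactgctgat

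Plrg1-202, without the capitals above, was at 24.2, 32.7 and 9.75 in NC 1, 2 and 3. It was listed at 0 in tRF-Val 1 and tRF-Val 2 and at 8.35 in tRF-Val 3. Each NC library was above each tRF-Val library, with NC 3 close to tRF-Val 3. Plrg1-204 was at 10.6, 11.0 and 19.3 in NC 1 to 3, against 10.1, 17.5 and 26.7 in tRF-Val 1 to 3, and the groups overlapped. Whether the zeros are failed assignments of reads between similar transcripts was not tested. Plrg1-202 held 69.6%, 74.8% and 33.5% of the gene's value in NC 1, 2 and 3, against 23.8% in tRF-Val 3 and none where it was listed at 0.

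**Figure D3:**
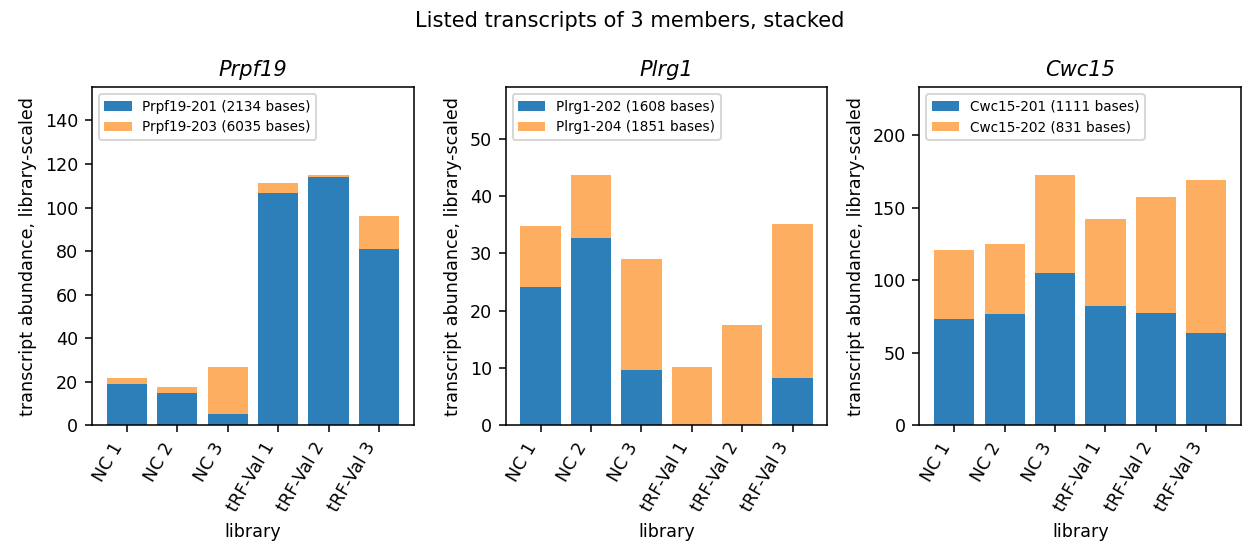
Abundance of the listed transcripts of Prpf19, Plrg1 and Cwc15 in each library, stacked so that the bar height is the gene's sum. In tRF-Val the Prpf19 bars consist mostly of Prpf19-201 (84.1 to 99.0%), and Plrg1-202 is listed at 0 in tRF-Val 1 and 2.

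Ctnnbl1, a protein with armadillo-like repeats that binds Cdc5l, was at 17.3, 16.6 and 15.6 in NC 1 to 3, against 21.1, 18.9 and 18.7 in tRF-Val 1 to 3. All tRF-Val libraries lay above all NC libraries, by a small margin. The fold change was 0.24 (SE 0.14). It was -0.0071 when the libraries were rescaled without mitochondrial transcripts, beside a median of -0.20 over all genes. The gene lies on chromosome 2 at 157737401 to 157891614.

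Cwc15, a small protein of the activated spliceosome, was the most abundant member. It was at 121, 125 and 172 in NC 1 to 3, against 142, 157 and 169 in tRF-Val 1 to 3, with NC 3 the highest library. The fold change was 0.18 (SE 0.18). It was negative after quantile normalization (-0.12) and after removal of the length and GC content trend (-0.089). After rescaling without mitochondrial transcripts it was -0.079, beside a median of -0.20 over all genes. Its transcripts share the coding sequence of 687 bases and differ in the first and last exons. The shorter one, Cwc15-202, held 39.5%, 38.7% and 39.1% of the value in NC 1 to 3, against 42.1%, 50.6% and 62.3% in tRF-Val 1 to 3. Its share was thus higher in each tRF-Val library, while its level overlapped between the groups, with NC 3 above tRF-Val 1 (67.5 against 59.8).

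Crnkl1 and Xab2 are scaffold proteins built of repeats of the HAT type. Crnkl1 was at 19.0, 20.3 and 31.5 in NC 1 to 3, against 20.5, 18.5 and 21.0 in tRF-Val 1 to 3, where NC 3 alone was high. Its fold change was -0.20 (SE 0.22), and 0.022 without NC 3. Xab2, which also acts in transcription-coupled repair, was at 14.6, 18.0 and 16.8 in NC 1 to 3, against 13.0, 13.5 and 15.7 in tRF-Val 1 to 3. Its groups overlapped, at a fold change of -0.21 (SE 0.16) that kept its sign in 18 of 18 alternatives. Among these, other filters, other moderation and the replicate block cannot alter a fold change.

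Isy1, known in yeast from the accuracy of splice site choice, was the least abundant member. It was at 8.07, 10.6 and 10.9 in NC 1 to 3, against 10.7, 12.0 and 13.1 in tRF-Val 1 to 3, and the groups overlapped. The fold change was 0.25 (SE 0.18), and 0.67 after removal of the length and GC content trend. Its second listed transcript, Isy1-205, of 387 bases, was at 0.357 to 0.865 and stayed under the filter for single transcripts.

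Syf2, named after a yeast splicing factor that binds the counterparts of Crnkl1 and Xab2, was at 45.3, 47.7 and 53.5 in NC. It was at 67.2, 64.2 and 67.3 in tRF-Val, with the groups apart and little spread within each. The means were 48.8 ± 4.22 and 66.3 ± 1.78 (SD, n = 3 each), a ratio of 1.36 and a fold change of 0.44 (SE 0.13). Syf2 was not called with all libraries but was called without NC 3 (fold change 0.50), in a fit that called 2.75% of all genes higher. With the length and GC content trend removed the fold change was 0.10.

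In single transcripts 0 of 13 tested transcripts of the members were called by limma, where 1.14% of 16320 transcripts were, and 3 of the 13 had an unadjusted p under 0.05, where 19.4% of all transcripts did. The groups were apart in 4 of the 13 (Prpf19-201, Ctnnbl1-201 and Syf2-201 higher, Plrg1-202 lower), where 33.5% of all transcripts had groups apart. The fold change of Prpf19-201 was 3.01 (SE 0.47). None is given for Plrg1-202, since the zeros let the added 1 set its size.

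By level, the NC means of the members ran from Cwc15 (139 ± 28.6) through Cdc5l (57.6 ± 12.4), Syf2 (48.8 ± 4.22), Bcas2, Plrg1, Crnkl1 (23.6 ± 6.86), Prpf19, Ctnnbl1 (16.5 ± 0.842) and Xab2 (16.5 ± 1.68) to Isy1 (9.88 ± 1.56, SD, n = 3). The distance between neighbours was smaller than the larger of their SDs from Cdc5l to Plrg1, for Crnkl1 and Prpf19, and for Ctnnbl1 and Xab2, although Syf2 lay farther from Cdc5l and Bcas2 than its own SD. In tRF-Val the order began with Cwc15 (156 ± 13.7), Prpf19, Syf2 and Cdc5l (50.1 ± 1.69), so Prpf19 passed Cdc5l, Syf2, Bcas2, Plrg1 and Crnkl1.

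Other genes of the spliceosome and partners of the complex were taken from 7 lists of 96 genes, all of which were tested. By limma 0 of the 96 were called, beside 0.259% of all genes, and 37 of 96 (38.5%) had an unadjusted p under 0.05, beside 27.8% of all genes. Their fold changes ran from -1.10 to 1.11, with a median of 0.14. Each was smaller than that of Prpf19, which was chosen from this contrast, so nothing is read from that. Without NC 3 the Sm ring proteins Snrpg and Snrpd2 and the U2 protein Snrpa1 were called higher, 3 of the 96, in a fit that called 2.75% of all genes higher.

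Of 13 further proteins that join with the Prpf19 complex, 8 had positive and 5 negative fold changes, with a median of 0.21. That median was -0.00080 after quantile normalization, -0.040 after rescaling without mitochondrial transcripts (all genes -0.20) and 0.037 with the length and GC content trend removed. With 1 library left out it ran from 0.0069 (NC 1) to 0.26 (NC 3). Aqr, the helicase of the intron-binding complex to which Xab2 and Isy1 belong, was at 17.1 ± 0.273 in NC and 8.34 ± 2.71 in tRF-Val (SD, n = 3 each), a fold change of -0.99. Bud31 was at 204 ± 18.6 and 314 ± 31.9 (fold change 0.61). Both had groups that did not overlap, in opposite directions, where 42.5% of all genes had groups apart, and neither was called.

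The 16 proteins of U5 and the tri-snRNP, the particle on which the complex acts, had a median of 0.12. After rescaling without mitochondrial transcripts the list median was -0.13, beside -0.20 over all genes. With 1 library left out the list median was 0.045 to 0.16 (lowest without tRF-Val 2, highest without NC 1). Txnl4a, a small U5 protein, was at 27.1 ± 1.85 and 43.5 ± 6.59, and Snrnp200, the helicase that unwinds U4 from U6, was at 30.3 ± 1.88 and 20.6 ± 2.52 (SD, n = 3 each). The 19 proteins of U1 and U2 had a median of 0.19, or -0.0094 after quantile normalization and -0.064 after the rescaling. That median was 0.033 with the length and GC content trend removed, and 0.19 to 0.30 with 1 library left out (highest without NC 1). Snrpa1 was at 42.5 ± 10.04 and 75.6 ± 2.88, and Sf3b5, a small subunit of the branch-site complex, was at 7.69 ± 2.44 and 14.8 ± 2.13. Positive and negative fold changes were 10 and 6 in the former list and 15 and 4 in the latter.

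The 15 Sm and LSm proteins, which form rings on RNA, had the highest median of the 7 lists, at 0.45, where 13 fold changes were positive and 2 negative. That median was positive in each scaling (0.19 after the rescaling, beside -0.20 over all genes) and 0.35 with the length and GC content trend removed. Lsm8 was at 38.7 ± 9.55 and 72.3 ± 4.44, and Snrpg at 74.7 ± 18.5 and 143 ± 13.7 (SD, n = 3 each). These genes are short, with a median length of 858 bases. The 8 genes of the exon junction complex, which splicing leaves on mRNA, had a median of 0.19, or -0.011 after quantile normalization and -0.067 after the rescaling. That median was 0.039 with the length and GC content trend removed, and ran from 0.11 without tRF-Val 3 to 0.46 without tRF-Val 1. Magoh was at 159 ± 17.3 and 213 ± 21.8, and Rbm8a at 71.3 ± 12.8 and 101 ± 19.6.

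The 12 helicases and step factors had a median of -0.31, with 2 positive and 10 negative fold changes. That median was -0.074 with the length and GC content trend removed and -0.55 after the rescaling, beside -0.20 over all genes. Dhx15, the helicase that takes the spliceosome apart, was at 95.6 ± 17.0 in NC and 53.3 ± 8.57 in tRF-Val. Ddx39b, a helicase of early assembly and mRNA export, was at 80.1 ± 1.20 and 115 ± 16.7 (SD, n = 3 each). The 13 ubiquitin and DNA repair partners had a median of -0.33, and 0.016 with that trend removed. It ran from -0.105 without NC 3 to -0.56 without tRF-Val 1, and was -0.54 with 0.1 added in place of 1. Ercc6, of transcription-coupled repair, was at 3.19 ± 0.357 and 1.63 ± 0.212, and Polr2a, the large subunit of RNA polymerase II, at 49.3 ± 8.59 and 25.8 ± 7.17. The genes of both lists are long, with median lengths of 3482 and 3867 bases. Length and GC content were removed together, and their parts were not tested apart.

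**Figure D4:**
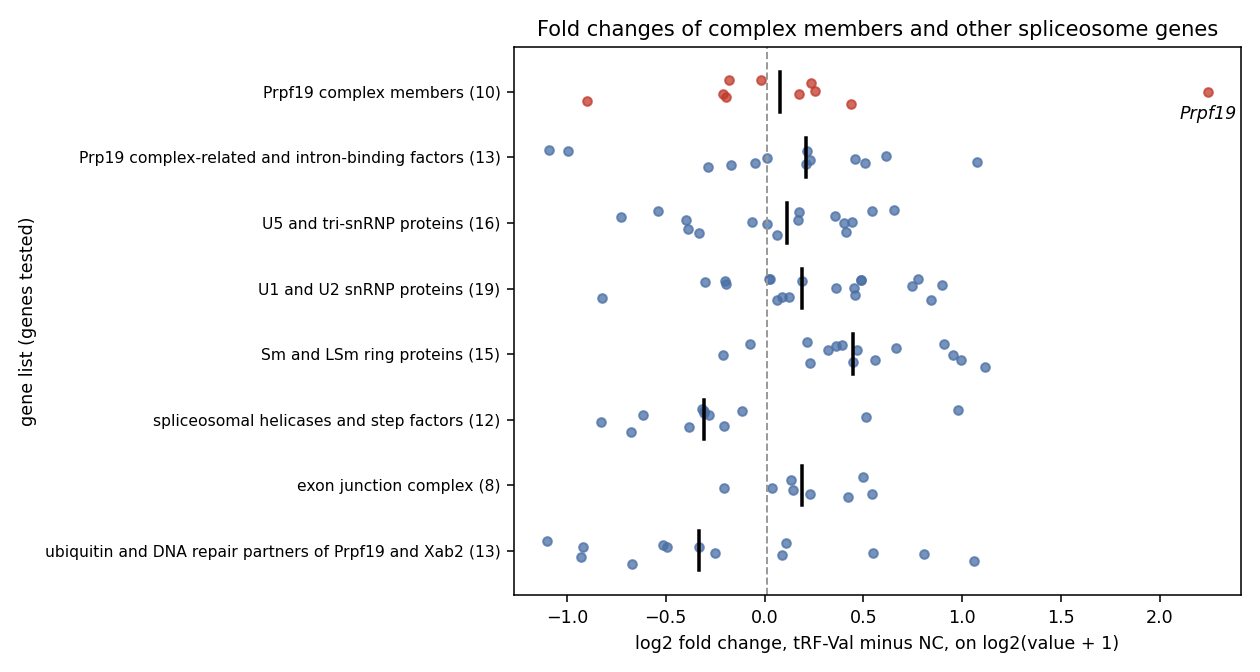
Fold change (tRF-Val minus NC, log2(value + 1)) of each complex member and of the genes of 7 lists (points), with list medians (black bars) and the median of all genes tested (dashed line, 0.01). Prpf19 lies at 2.24, beyond each of the other genes drawn, whose fold changes run from -1.10 to 1.11. Prpf19 was chosen from this contrast, so its place is a description.

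The genes whose levels followed Prpf19 most closely were ranked by Pearson's r over the 6 libraries on the log2(value + 1) scale, as a description. They were Clybl, a mitochondrial lyase (r = 0.996), Cadm1, an adhesion molecule (0.994), Rassf8 (0.993), Tars2, the mitochondrial threonyl-tRNA synthetase (0.989), and Noa1, a mitochondrial GTPase (0.988). Their fold changes ran from 0.29 for Noa1 to 1.41 for Tars2, beside 2.24 for Prpf19. The 6 points form a low and a high group, so r mostly reflects that step. None of the 5 is a gene of the lists, which hold 96 of the 10405 genes tested, so nothing is read from that.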

How the data were processed

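RNA was extracted with Trizol and sequenced from stranded libraries, per the labels' protocols, whose text also speaks of joint tissue although each sample is labelled as a kidney cell line. Per the submitters' processing notes the tools were cutadapt, HISAT2 2.1.0 and StringTie, and the build named is the human GRCh38; annotation and settings are not stated. The table that the authors deposited gives a signal per transcript and library that the authors scaled to the library, FPKM or TPM not being stated. Of 30813 rows, 21603 carry mouse IDs and 9210 human IDs, which were not used. The values of the human rows summed to 41480 to 53290 per library. By ID without version 21558 mouse rows matched GENCODE M21 (GRCm38). No mouse row is below a mean of 0.5 in both groups, so lower transcripts are missing from gene sums.

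Values were added per symbol. Genes averaging 1 or more over all libraries were fitted as log2(value + 1) with limma 3.58.1 (R 4.3.3, trend and robust moderation, no covariate), with two-sided p adjusted by Benjamini-Hochberg over all genes at a threshold of 0.05; single transcripts were fitted likewise. The fit was tested on simulated data. An exact permutation test of 3 against 3 was not used. The members and lists were chosen with earlier results of these data known. Named genes were all members, the 2 genes of each list with the smallest p, the genes next to Prpf19 and the 5 most like it; Snrpd2 was named after its values were seen. Alternatives were other pseudocounts, filters, scalings, moderation, weights, a replicate block, removal of length and GC content trends (loess, span 0.3), libraries left out and single transcripts.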

Additional observations from a re-analysis of the deposited data

How the results depend on the processing

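The fold change of Prpf19 was positive in 18 of 18 alternatives, from 1.99 to 2.43, and Prpf19 was called in 11 and not in 7 of them. Plrg1, Xab2, Isy1 and Syf2 also kept their signs in all 18, while those of Cdc5l, Crnkl1, Bcas2, Ctnnbl1 and Cwc15 changed in at least 1. Other filters, other moderation and the replicate block leave a fold change as it is, so no sign could change in those alternatives. The number of members called, 1 with all libraries, was 0 with a pseudocount of 0.01, with the length and GC content trend removed and in single transcripts. It was 0 to 2 with 1 library left out. Genes called higher and lower over all genes, 6 and 21, were 0 to 286 and 3 to 316 with 1 library left out, the highest counts being without NC 3 (286 and 316). They were 2 and 3 with a pseudocount of 0.1, 0 and 0 with 0.01, and 1 and 1 with a filter at a mean of 5. Median scaling gave 15 higher and 23 lower, quantile normalization 22 and 49, rescaling without mitochondrial transcripts 23 and 185, and removal of the length and GC content trend 21 and 35. Limma without trend gave 36 lower and without robust estimation 32. Single transcripts gave 49 and 137. Library quality weights gave 2340 and 3280, 5 members and 43 higher and 20 lower genes of the lists. That weight fit gave a warning and weighted NC 2 at 15.0 and NC 3 at 0.0827. Its NC means thus rest largely on NC 2. Genes of the lists called higher were 0 to 3 with 1 library left out. Why the counts changed was not tested in any of these settings.

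With the replicate number as a block, 0 genes were called higher and 0 lower, and 0 members. Deviations of same-numbered libraries had correlations of -0.0297, 0.0161 and -0.0095 across genes. Those of libraries with different numbers ran from -0.0396 to 0.0439. No label says whether same-numbered libraries were paired, and correlations this close together cannot decide it. Depth is unknown, and 3 libraries a group limit the precision.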

Other observations

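The listed genes on either side of Prpf19 on chromosome 19 of GRCm38 were Tmem109, 13229 bases away on the side of lower coordinates, and Ccdc86, 31921 bases away on the other. Tmem109, a membrane protein of the endoplasmic reticulum and nucleus, was at 32.4, 29.6 and 5.95 in NC 1 to 3, against 41.3, 43.6 and 44.2 in tRF-Val 1 to 3. The groups did not overlap, NC 3 was far below the other libraries, and the gene was not called (fold change 1.20, SE 0.60, limma adjusted p 0.239). Ccdc86, a nucleolar protein, was at 33.2, 31.6 and 22.0 in NC 1 to 3, against 30.9, 35.8 and 36.7 in tRF-Val 1 to 3; the groups overlapped (fold change 0.26, SE 0.20, adjusted p 0.402).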
